A study of Mus musculus with 14 samples.

Results

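The second week of culture was followed in wild-type Th2 cells, mouse CD4 T cells that had been driven towards the type 2 helper fate, by comparing the 3 wild-type libraries of day 14 with the 4 wild-type libraries of day 7. These 7 libraries are all the wild-type ones among the 14 of the series and were taken by their titles. Both groups carry the same label of genotype (WT) and strain (C57BL/6J) and differ in the treatment label alone, Th2 7d or Th2 14d. No wild-type animal or culture carries an allele or agent that is named in the labels beyond this. The source is given as CD4+ TCRb+ T cells sorted from splenocytes, and the series text describes purification of naive cells, activation and Th2 polarization. The other 7 libraries, cells lacking Ago1, Ago3 and Ago4 together at the same days, entered only the shared estimate of the spread and 1 comparison near the end. Nothing in the labels tells whether the libraries of 1 day stem from separate mice or cultures, so p-values here measure no more than the spread among these libraries, technical spread included. The series text gives the late time both as 14 and as 15 days.

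Th2 cells are the helper T cells of allergy and of the defence against worms. In a naive T cell, signals through the antigen receptor and the IL-4 receptor turn on the transcription factor GATA3, which opens the locus of the cytokines IL-4, IL-5 and IL-13. Cells that have become effectors lose the receptors that keep naive cells moving through lymph nodes, gain receptors for inflamed tissue, and depend on IL-2 for growth.

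Levels are given as CPM, a gene's reads as a share of the counted reads of its library, on totals scaled by the TMM method. Values joined by a dash are the lowest and the highest library of a day. The libraries held 24584420 to 35803197 counted reads at day 7 and 27963051 to 31042380 at day 14, with reads in 12534 to 12854 and in 12632 to 13241 genes. Day 14 library 3 stood apart from the other 2 libraries of its day: over the 8372 genes of at least 5 CPM, the median SD of log2 CPM was 0.179 within day 7, 0.184 between day 14 libraries 1 and 2, and 0.448 within day 14 with library 3. A first principal component (57.4% of the variance) separated the days and a second (29.5%) set library 3 apart. Counts and medians of gene lists, and log2 fold changes of called genes, are given without that library too where its omission moved them by over 1.5 times. The CD4 T cell markers added up to 5398 to 6348 CPM at day 7 and 5811 to 6361 CPM at day 14 (1 of 10 called higher and 2 lower, 1 and 1 without day 14 library 3, and 0 and 0 without day 7 library 1, 3 or 4 or day 14 library 2), and Cd4 itself stood at 324, 362, 457 and 384 CPM at day 7 and 309, 395 and 333 CPM at day 14 (edgeR adjusted p = 0.674).

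Of 11591 genes tested, 2375 (20.5%) passed an adjusted p of 0.05 in edgeR's quasi-likelihood test with Benjamini-Hochberg adjustment. Higher levels at day 14 were called for 1525 genes (13.2%) and lower levels for 850 (7.33%), and the median log2 fold change over all tested genes was -0.00. These 2 shares, 13.2% higher and 7.33% lower, are the background for the counts of called members in every gene list. Among the higher calls, 761 were at least 4-fold and 265 at least 16-fold. Among the lower calls, 224 were at least 4-fold and 51 at least 16-fold, with days of at most 3 reads set at 3 counts. The libraries of the days did not overlap for 3592 genes (31.0%), and 1397 genes were both called higher and free of overlap (12.1%) against 836 called lower (7.21%). Sequencing runs are not named in the labels, and 2 were inferred from lane numbers and the order of the library identifiers. The direction of 2351 of the 2375 calls was the same in both inferred runs. The first held 3 libraries of day 7 and 1 of day 14, the second 1 and 2. Since the calls were made from these same libraries, this agreement is largely built in and is no independent support. Without day 14 library 3, 1695 genes were called higher and 1844 lower, and without day 14 library 1, 1321 and 562. With trends over the GC content and the length of the coding sequence taken out of each library, 1770 were called higher and 1825 lower, so the surplus of higher calls depends on both choices. Genes called higher had a median coding GC content of 55.9%, those called lower 51.6% and all tested genes 53.04%.

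**Figure D1:**
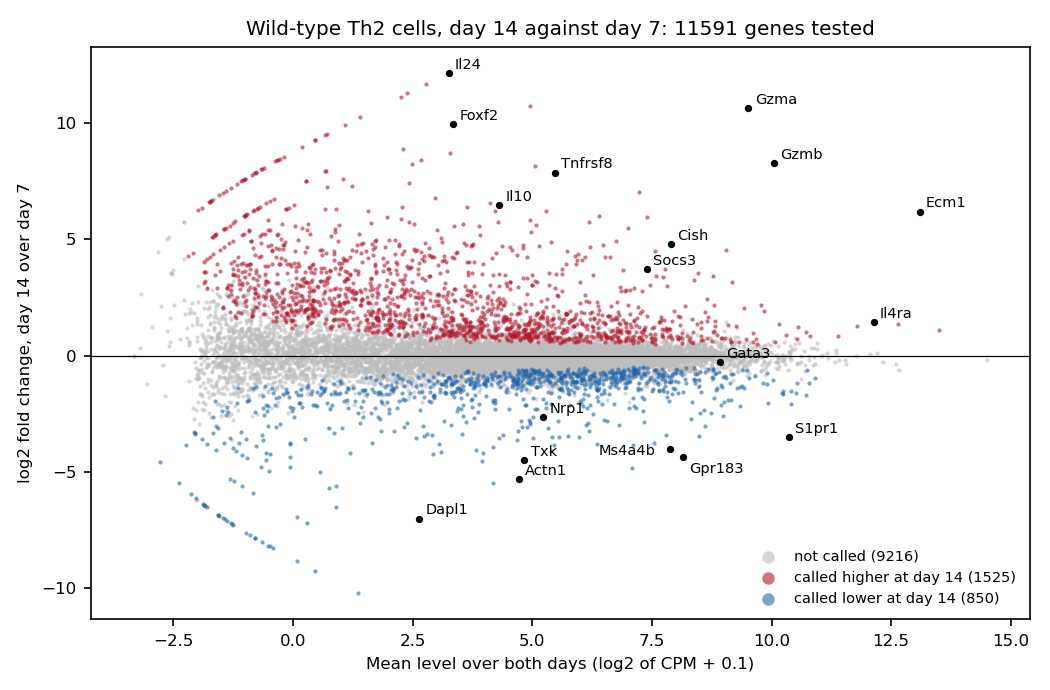
Each point is 1 of 11591 tested genes, with the mean level over both days (log2 of CPM + 0.1) on the x axis and the log2 fold change of day 14 over day 7 in wild-type cells on the y axis. The 1525 genes called higher reach larger fold changes than the 850 called lower, and the black dots mark 18 of the genes described in the text.

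The Th2 cytokine genes that could be tested were called higher at day 14. Of 11 listed cytokine genes 7 had enough reads to be tested, and all 7 were called higher. Genes with 0 reads at day 7 could pass the read filter only through other groups, so this count is no support for a shared rise. With wild-type libraries alone 5 were tested, and with at least 1 CPM in 3 libraries 4, all called higher. The median log2 fold change of the 7 was 6.48, or 6.03 with 3 genes that had 0 reads at day 7 set at a floor of 3 counts. Il4, the cytokine that both drives and marks the Th2 fate, stood at 0.863, 1.33, 1.56 and 1.67 CPM in the day 7 libraries and at 3.12, 5.01 and 15.9 CPM in the day 14 libraries. All 3 day 14 libraries lay above all 4 of day 7, library 3 farthest (log2 fold change 2.56 ± 0.51, where ± is the SE in fold changes, edgeR adjusted p = 0.00268; 1.59 and 0.0104 without library 3). Il5, which acts on eosinophils, had 0 reads in each day 7 library and 24, 147 and 303 reads in the day 14 libraries, at least 216-fold higher against a floor of 3 counts over the day 7 group (edgeR adjusted p = 0.000607).

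Il10, which encodes an anti-inflammatory cytokine, went from 0.278, 0.488, 0.670 and 0.293 CPM to 7.70, 31.7 and 77.7 CPM, with no overlap (6.48 ± 0.75, edgeR adjusted p = 5.63e-05). Il24, a cytokine of the IL-10 family, had 0 reads at day 7 and 50, 217 and 1539 reads in the day 14 libraries, at least 823-fold higher against the same floor (edgeR adjusted p = 0.00141). It is the gene with the largest fitted fold change among the named genes. Il6 had 1 read in the 4 day 7 libraries and stood at 0.446, 0.701 and 1.27 CPM at day 14, 101-fold by reads (95% counting interval 17.6 to 4048, edgeR adjusted p = 0.00179). Il13 stayed near the detection limit: it had 0 reads at day 7 and 3, 3 and 5 reads at day 14 and was not tested. Il9, the cytokine of a mast-cell-active helper subset, had reads in day 14 library 3 only, 17 of them. The genes for the cytokines that define Th2 cells were thus low or near 0 reads at both days, while Gata3 was not.

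The genes for the Th2 regulators moved apart. Of 20 tested transcription factors 10 were called higher and 4 lower (median 0.69). The counts were 8 higher and 2 lower without day 7 library 1 or 2. Gata3, the factor that defines the lineage, was not among them: it stood at 453, 498, 603 and 591 CPM at day 7 and 431, 476 and 411 CPM at day 14, and the days overlapped (-0.29 ± 0.16, edgeR adjusted p = 0.234). With the trends over GC content and coding length removed, Gata3 was called lower (-0.58, edgeR adjusted p = 0.0134). Nfil3, a basic leucine zipper factor induced by IL-4, rose from 218, 334, 401 and 339 CPM to 1289.8, 1635 and 1379 CPM (2.15 ± 0.24, edgeR adjusted p = 3.95e-05). Batf, an AP-1 factor needed for Th2 and Th17 cells, rose from 33.3–41.5 to 103–154 CPM (1.79 ± 0.28, edgeR adjusted p = 0.000472). The Notch effector gene Rbpj rose by 2.49 ± 0.38 and the homeobox gene Hlx, better known from Th1 cells, by 4.17 ± 0.51 on the log2 scale (edgeR adjusted p = 0.000405 and 7.96e-05), both from under 3 CPM. Ets1, a factor of resting T cells, fell from 972, 1049, 838 and 939 CPM to 399, 297 and 461 CPM (-1.30 ± 0.21, edgeR adjusted p = 0.00055).

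Of 15 tested receptor and surface genes of Th2 cells 8 were called higher and 0 lower, with a median of 1.24. Without day 14 library 3 the counts were again 8 and 0 and the median was 0.81. Il4ra, the receptor chain shared by IL-4 and IL-13, was among the 10 genes with most reads at day 14. It stood at 2444, 2397, 2679 and 2190.1 CPM at day 7 and at 6959, 7431 and 5362 CPM at day 14 (1.44 ± 0.29, edgeR adjusted p = 0.00302), and in this gene library 3 was the lowest of its day. Ccr8, a chemokine receptor of tissue Th2 cells, rose from 4.87, 4.91, 6.67 and 5.64 CPM to 81.5, 119 and 224 CPM (4.68 ± 0.85, edgeR adjusted p = 0.00148). Plcd1, a phospholipase C gene, rose from 5.68, 6.93, 8.14 and 6.10 CPM to 117, 116 and 115 CPM, with nearly equal levels in the 3 day 14 libraries (4.11 ± 0.23, edgeR adjusted p = 4.31e-07). Epas1, which encodes the oxygen-sensitive factor HIF-2α, rose from 6.01–9.96 to 67.8–106 CPM (3.51 ± 0.42, edgeR adjusted p = 7.08e-05).

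Genes of naive and central memory T cells fell together. Of 25 tested genes 20 were called lower and 1 higher, and the median was -2.24. The same counts, 20 and 1, were obtained without day 14 library 3. S1pr1, the receptor that lets T cells leave lymph nodes, fell from 2020.5, 2434, 2389 and 2782 CPM to 331, 228 and 80.9 CPM (-3.50 ± 0.49, edgeR adjusted p = 0.000224). Ccr7, a chemokine receptor for entry into lymph nodes, fell from 1499–1727 to 177–635 CPM (-2.03 ± 0.31, edgeR adjusted p = 0.000472).

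Dapl1, a gene marking naive and memory precursor cells whose role is little known, had the deepest fall among the named genes of at least 5 CPM. Its 10.9, 11, 12.3 and 14.4 CPM at day 7 gave way to 0.149, 0.0668 and 0.0618 CPM at day 14 (-7.00 ± 0.59, edgeR adjusted p = 5.12e-06). Txk, a Tec-family kinase of the antigen receptor pathway, went from 58.7, 51.4, 41.6 and 66.2 CPM to 2.31, 2.24 and 2.63 CPM (-4.51 ± 0.29, edgeR adjusted p = 7.70e-07). Id3, an inhibitor of E proteins, fell from 19.99–30.3 to 2.81–4.39 CPM, and the 4-pass membrane protein gene Ms4a6b from 289–396 to 15–32.5 CPM (-2.70 ± 0.26 and -3.76 ± 0.32). The related gene Ms4a4b, the cytoskeletal gene Actn1 and the surface protein gene Ly6c1 fell as well, with log2 fold changes of -3.99 ± 0.50, -5.30 ± 0.59 and -4.11 ± 0.48 (largest edgeR adjusted p of the 3 9.86e-05). The naive-state factors Tcf7, Klf2, Lef1 and Foxo1, named here after their values were seen, fell with log2 fold changes of -2.61 ± 0.53, -2.48 ± 0.51, -1.35 ± 0.23 and -1.90 ± 0.21 (largest edgeR adjusted p 0.00344). For Tcf7 and Klf2 library 3 was much the lowest, at 34.0 and 27.2 CPM, and without it the changes were -2.15 and -1.998.

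**Figure D2:**
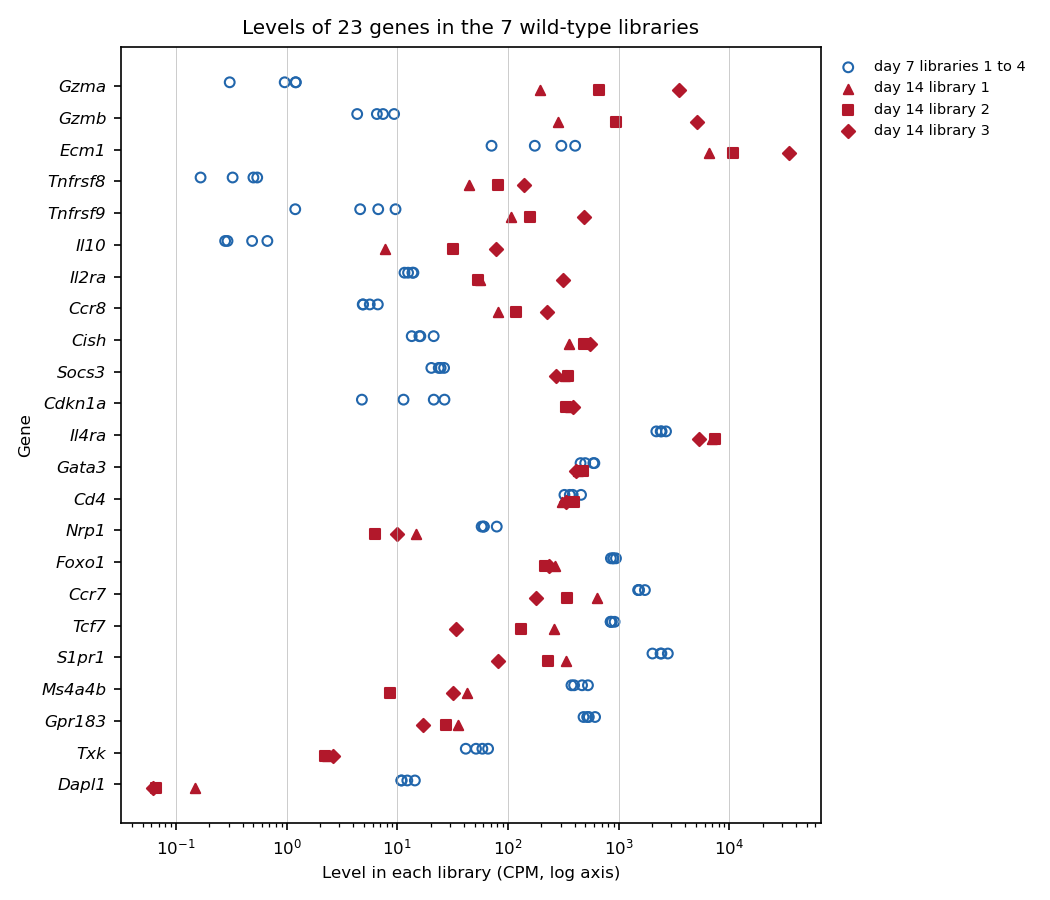
Levels of 23 genes (y axis) in each of the 7 wild-type libraries (x axis, CPM on a log axis), with open circles for the 4 day 7 libraries and filled symbols for the 3 day 14 libraries. Gzma to Il4ra lie higher at day 14, Gata3 and Cd4 overlap between days, and Nrp1 to Dapl1 lie lower in all 3 day 14 libraries.

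Granzyme genes and Ecm1 were among the genes with most reads in day 14 library 3. Gzma (chromosome 13, 113093825 to 113100981), a serine protease of cytotoxic granules, stood at 0.306, 1.20, 1.21 and 0.961 CPM at day 7 and 193, 669.9 and 3535 CPM at day 14. Gzmb, the granzyme that triggers apoptosis in target cells (chromosome 14, 56258838 to 56262260), stood at 4.34, 6.54, 7.44 and 9.36 CPM and 284, 938 and 5149 CPM. In both genes the 3 day 14 libraries spread widely, library 3 highest and library 1 lowest, yet the lowest of them lay far above the highest of day 7 (10.64 ± 1.17 and 8.26 ± 1.06, edgeR adjusted p = 3.87e-05 and 0.000124). Of 12 tested cytotoxic granule genes 6 were called higher and 1 lower, with a median of 1.10. Leaving out single libraries gave 7 higher and 0 lower without day 14 library 2, 5 higher and 2 lower without day 14 library 3. Among them Ctsw, a cathepsin of killer cells, rose from 6.21–9.74 to 26.2–50.9 CPM, and Fasl, the death receptor ligand, from 6.18–10.7 to 15.6–19.1 CPM (edgeR adjusted p = 0.0033 and 0.0106). Nkg7, a granule membrane protein gene, reached only 1.97–3.74 CPM and was not called without day 7 library 1 or 3 (edgeR adjusted p = 0.055 and 0.0528).

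Markers of CD8 T cells and natural killer cells were examined beside the granzymes. Ncr1, Klrb1c and Klre1 had 0 reads in all 7 libraries, Klra7 had 1 read in all, and Cd8a had 4 reads at day 7 and 0 at day 14. Klrg1 went the other way, with 0 reads at day 7 and 18 at day 14, at least 8.20-fold higher against a floor of 3 counts. Its counts were too low for it to be tested. Cd8b1 stood at 6.61–10.1 CPM at day 7 and 6.32–7.92 CPM at day 14. The summed level of the 8 genes was 11.9 to 13.1 CPM at day 7 and 30.5 to 50.2 CPM at day 14, a gain carried by Eomes, a T-box factor of cytotoxic and memory cells, which rose from 4.85, 6.48, 4.47 and 2.97 CPM to 30.005, 42 and 22.4 CPM (2.74 ± 0.44, edgeR adjusted p = 0.000584). In such bulk libraries more cells of a type cannot be told apart from more RNA of a gene per cell, which holds for every level given here.

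Ecm1, a secreted protein known for the exit of Th2 cells from lymph nodes, took the most reads of any gene in day 14 library 3. It stood at 71.1, 175, 405 and 304 CPM at day 7 and 6584, 10894 and 34398 CPM at day 14 (6.18 ± 0.86, edgeR adjusted p = 0.000226). On the authors' deposited RPKM scale, which divides by the counted length of a gene, Ecm1 went from 57.4 ± 34.3 (SD, n = 4) to 4614 ± 4173 (SD, n = 3). Actb, the cytoskeletal actin gene and the most abundant gene at day 7, stood at 8888 ± 876 and 8419 ± 317 RPKM (edgeR adjusted p = 0.616). The class I major histocompatibility genes H2-D1 and H2-K1 also rose, at 1.08 ± 0.25 and 1.34 ± 0.29 on the log2 scale (edgeR adjusted p = 0.00677 and 0.0045), although such genes share reads with near-identical copies. Sdf4, a calcium-binding protein gene of the Golgi, rose from 1551–2583 to 4637–5681 CPM (1.29 ± 0.23, edgeR adjusted p = 0.00135). Coro1a, Arhgap45, Itgb7, Arhgef1, Selplg, Laptm5 and Rasal3, which encode actin regulators, adhesion molecules and a lysosomal protein, completed the set of genes with most reads and were not called (edgeR adjusted p from 0.148 to 0.966).

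Some genes of the Th1 subset were also higher. Ifng, the gene of the Th1 cytokine interferon gamma, had too few reads to be tested, as had Ccl3 and Xcl1. Of 12 tested Th1 genes 7 were called higher and 0 lower (median 2.08), and 5 and 1 without library 3 (median 1.22). Il12rb1, a chain of the IL-12 receptor, rose from 30.2, 32, 39.7 and 30.4 CPM to 296, 333 and 432 CPM (3.42 ± 0.28, edgeR adjusted p = 4.03e-06). Cxcr3, the chemokine receptor that marks Th1 cells, rose from 8.94, 9.34, 3.32 and 3.97 CPM to 85.8, 115 and 24.9 CPM (3.55 ± 0.55, edgeR adjusted p = 0.000486). Il18rap, a chain of the IL-18 receptor, rose from 0.287–0.724 to 6.36–27.8 CPM (4.62 ± 0.54, edgeR adjusted p = 5.74e-05). Of 4 tested Th17 and follicular helper genes 1 was called higher (2 higher and 0 lower without day 14 library 3), Tox2, at 1.82–7.54 CPM at day 14.

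Genes shared by activated and regulatory T cells rose broadly: 10 of 14 tested were called higher and 1 lower (median 1.45). Tnfrsf4, the costimulator OX40, rose from 67.2, 91.8, 163 and 145 CPM to 742, 857 and 1504 CPM (3.15 ± 0.51, edgeR adjusted p = 0.00063). Ebi3, a subunit of the cytokines IL-27 and IL-35, rose from 8.60–17.4 to 61.8–87.3 CPM, and Ikzf4, an Ikaros-family factor, from 6.24–7.73 to 32.6–158 CPM (2.58 ± 0.36 and 3.50 ± 0.56, edgeR adjusted p = 0.000245 and 0.000596). Il1r2, a decoy receptor for IL-1, reached 5.58, 13.9 and 54.2 CPM from under 1 CPM (6.37 ± 0.93, edgeR adjusted p = 0.00033). The member that fell was Nrp1, the semaphorin receptor neuropilin 1, from 57.8–79.2 to 6.25–14.7 CPM (-2.65 ± 0.43, edgeR adjusted p = 0.000596).

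Receptors of the TNF receptor family and their ligands were called higher in 9 of 20 tested genes and lower in 3, with a median of 0.82, and of 0.48 without day 14 library 3. Tnfrsf8, which encodes CD30, gained most, from 0.167, 0.325, 0.543 and 0.502 CPM at day 7 to 44.6, 81.3 and 140.2 CPM at day 14 (7.86 ± 0.75, edgeR adjusted p = 1.42e-05). Tnfrsf9, the costimulator 4-1BB, went from 1.20, 4.62, 9.64 and 6.73 CPM to 107, 158 and 484 CPM (5.50 ± 0.87, edgeR adjusted p = 0.000554). Tnfrsf1b, the TNF receptor 2 gene, rose from 95.5–121 to 262–470.1 CPM and Tnfsf14, the ligand LIGHT, from 1.40–2.26 to 9.71–13.3 CPM. Tnfrsf25, the receptor DR3 of resting T cells, fell from 77–98.1 to 24.8–32.7 CPM (-1.58 ± 0.20, edgeR adjusted p = 7.96e-05).

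Of 12 tested inhibitory receptor genes 6 were called higher and 2 lower (median 0.70, and 0.43 without day 14 library 3). Counts without single libraries were 3 higher and 2 lower without day 7 library 1 or 3, 4 higher and 4 lower without day 14 library 3. Pdcd1, which encodes PD-1, rose from 0.613, 0.358, 1.21 and 0.669 CPM to 11.5, 15.7 and 14.2 CPM (4.27 ± 0.52, edgeR adjusted p = 7.99e-05). Tigit, an inhibitory receptor for nectins, rose from 0.919, 1.24, 2.75 and 2.80 CPM to 20.2, 44.1 and 24 CPM (3.94 ± 0.58, edgeR adjusted p = 0.000351). The ectonucleotidase gene Entpd1 rose from 57.7–78 to 96.4–244 CPM. Tox, a factor of chronically stimulated T cells that stands on the same list, fell from 49.999–58.7 to 2.60–13 CPM, and the collagen receptor gene Lair1 from 4.26–6.28 to 1.54–1.93 CPM (-2.85 ± 0.42 and -1.54 ± 0.28, edgeR adjusted p = 0.000362 and 0.00123).

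Receptors for IL-2 and feedback inhibitors of cytokine signalling rose. Of 27 tested interleukin receptor, JAK and STAT genes 8 were called higher and 3 lower (median 0.05, and -0.12, -0.06 and 0.02 without day 14 libraries 1, 2 and 3 in turn). Omission of 1 library gave 5 higher and 4 lower without day 7 library 1, 7 higher and 0 lower without day 14 library 1, 8 higher and 7 lower without day 14 library 3. Il2ra, the high-affinity chain of the IL-2 receptor, stood at 13.7, 14, 12.5 and 11.6 CPM at day 7 and 55.4, 53.6 and 317 CPM at day 14, library 3 far above the others of its day (3.45 ± 0.57, edgeR adjusted p = 0.000744; 2.07 and 0.00139 without library 3). Il2rb, the signalling chain of the same receptor, rose from 57.1, 57.9, 74.4 and 62.9 CPM to 489, 505 and 814 CPM (3.26 ± 0.43, edgeR adjusted p = 0.000138). Jak3, the kinase bound to the common gamma chain, rose from 326–479 to 1003–1712 CPM and Il21r from 265–319 to 519–646 CPM (1.91 ± 0.31 and 1.06 ± 0.19, edgeR adjusted p = 0.00063 and 0.00107).

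In the list of SOCS genes and related feedback genes 7 of 13 were called higher and 1 lower. With 1 library left out the counts were 7 higher and 0 lower without day 7 library 3, 6 higher and 0 lower without day 7 library 4 or day 14 library 2. Cish, an inhibitor induced by STAT5, stood at 13.5, 16.2, 21.3 and 15.8 CPM at day 7 and 355, 485 and 548 CPM at day 14 (4.79 ± 0.44, edgeR adjusted p = 9.65e-06). Socs3, which binds JAK kinases and gp130, went from 26.5, 24.6, 23.7 and 20.3 CPM to 325, 346 and 270.4 CPM (3.72 ± 0.36, edgeR adjusted p = 1.64e-05). Socs1, the inhibitor of IL-4 and interferon signalling, went from 75.8, 72, 87.5 and 70.6 CPM to 596, 739 and 1082 CPM (3.40 ± 0.39, edgeR adjusted p = 4.57e-05). In all 3 genes every day 14 library lay well above every day 7 library. The kinase genes Pim2 and Pim3, cytokine-induced survival factors, rose by 1.28 ± 0.21 and 1.57 ± 0.22 on the log2 scale (edgeR adjusted p = 0.000643 and 0.000192).

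Genes of the antigen receptor pathway were called in both directions. Of 34 tested genes of the T cell receptor complex and its proximal signalling 2 were called higher (5.88%, beside 13.2% of all genes tested) and 6 lower (17.6%, beside 7.33%). The median was -0.14, and with 1 library left out as low as -0.25 (without day 14 library 2 or 3). With the trends over GC content and coding length removed, 4 were called higher and 12 lower (median -0.36). The counts were 1 higher and 5 lower without day 7 library 1, 3 or 4, 1 higher and 6 lower without day 7 library 2 or day 14 library 1. Beside Txk, the kinase gene Fyn fell from 641–838 to 392–451 CPM, the ubiquitin ligase gene Cblb from 114–140.1 to 26.2–60.9 CPM and the diacylglycerol kinase gene Dgka from 1309–1560.5 to 591–830.2 CPM (-0.80 ± 0.17, -1.41 ± 0.32 and -1.07 ± 0.19, largest edgeR adjusted p 0.00585). The phosphatase gene Ubash3a rose from 274–287 to 380.3–536 CPM (0.68 ± 0.16, edgeR adjusted p = 0.00608). Of the receptor chains among the CD4 T cell markers, Cd3d, Cd3e, Cd3g, Trbc1 and Trbc2 were not called, and Trac fell from 733–958 to 479–556 CPM (-0.64 ± 0.20, edgeR adjusted p = 0.0356). Trac was not called when any 1 library other than day 14 library 3 was left out (edgeR adjusted p up to 0.114).

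Immediate early genes and their feedback genes, which report recent stimulation, were called higher in 9 of 22 tested and lower in 1 (median 0.79). Leaving out single libraries gave 5 higher and 1 lower without day 7 library 1 or 2 or day 14 library 1. Jun rose from 11.6, 13.4, 12.5 and 12.5 CPM to 56.5, 97.2 and 104 CPM (2.78 ± 0.33, edgeR adjusted p = 6.65e-05). The phosphatase genes Dusp6 and Dusp4, which dampen ERK signalling, rose from 26.1–34.6 to 151–306 CPM and from 0.251–2.01 to 18.7–20.2 CPM (2.75 ± 0.40 and 4.21 ± 0.70). Ier3 rose from 1.00–3.67 to 12.8–25.9 CPM, and Zfp36, which encodes the cytokine mRNA decay factor tristetraprolin, fell from 177–284 to 61.8–128 CPM (-1.20 ± 0.30, edgeR adjusted p = 0.0112).

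Receptors for migration changed in both directions. Of 17 tested chemokine and related receptor genes 9 were called higher and 4 lower (median 1.24), and the same counts held without library 3. Beside Ccr8 and Cxcr3, the inflammatory receptor gene Ccr1 rose from 0.125–0.488 to 1.57–11.5 CPM (4.00 ± 0.66, edgeR adjusted p = 0.000744; 2.46 without day 14 library 3). Gpr183, the oxysterol receptor that places T cells at the edge of follicles, fell from 482, 538, 519 and 613 CPM to 35.1, 27.3 and 17.2 CPM (-4.34 ± 0.29, edgeR adjusted p = 1.09e-06). Ccr2, a monocyte and memory T cell chemokine receptor, fell from 308, 329.9, 258 and 128 CPM to 20.4, 3.54 and 28.9 CPM (-3.86 ± 0.78, edgeR adjusted p = 0.00312). Of 16 tested integrin and adhesion genes 3 were called higher and 3 lower (18.75% each, beside 13.2% and 7.33% of all genes tested). Itgae, the integrin chain CD103 of epithelial T cells, rose from 0.557–1.20 to 10.002–19.2 CPM and Icam1 from 34.7–50.7 to 115–146 CPM, while Itga6, a laminin receptor chain, fell from 78.3–172 to 10.02–21.9 CPM (4.22 ± 0.74, 1.76 ± 0.28 and -2.88 ± 0.45, largest edgeR adjusted p 0.00118).

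Receptors for lipid mediators and the enzymes and helper proteins that make these lipids formed 1 list, in which 5 of 17 tested genes were called higher and 4 lower. Counts without single libraries were 4 higher and 2 lower without day 7 library 1 or 3. Ltb4r1, the receptor for leukotriene B4, rose from 2.14, 3.42, 6.32 and 6.31 CPM to 58.2, 91 and 154 CPM (4.48 ± 0.56, edgeR adjusted p = 9.44e-05). Ptger2, a receptor for prostaglandin E2, rose from 38.6–54.3 to 117–157 CPM (edgeR adjusted p = 0.0025). Alox5ap, the helper protein of leukotriene synthesis, fell from 1.73–6.65 to 0.186–0.278 CPM (-4.20 ± 0.64, edgeR adjusted p = 0.000426), and Ptgds, a prostaglandin D synthase, had 24, 7, 15 and 3 reads in the day 7 libraries and 0 at day 14 (edgeR adjusted p = 0.00369).

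**Figure D3:**
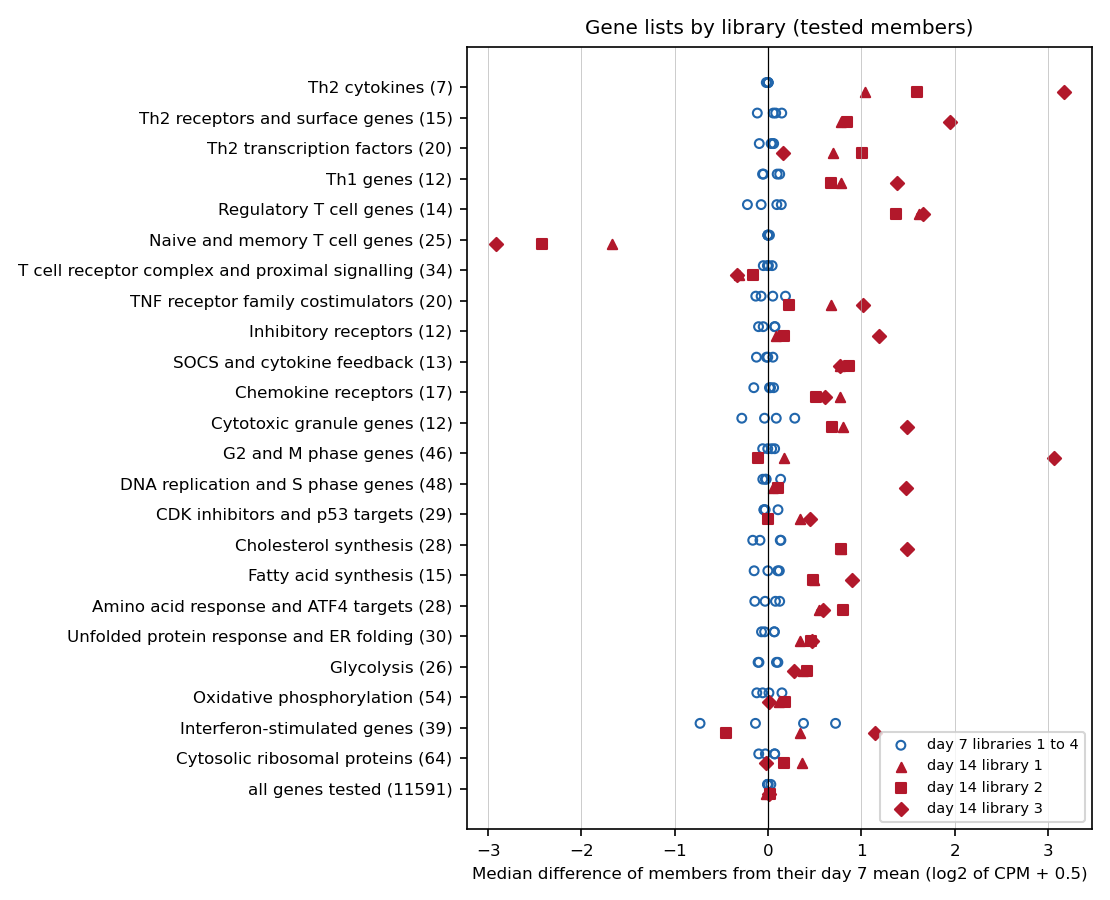
For 24 gene lists (y axis, with the number of tested members) each symbol gives the median over members, in 1 library, of the difference from the member's day 7 mean (x axis, log2 of CPM + 0.5). The naive and memory list is lower in all 3 day 14 libraries, while the G2 and M phase list is at 0.17, -0.11 and 3.06 in day 14 libraries 1, 2 and 3.

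Among the wild-type libraries, cell division genes were high in 1 day 14 library. Of 46 tested G2 and M phase genes 22 were called higher and 2 lower with all 7 libraries (median 2.06). Omission of 1 library gave 16 higher and 1 lower without day 7 library 1, 15 higher and 1 lower without day 7 library 3, 18 higher and 1 lower without day 7 library 4, 28 higher and 1 lower without day 14 library 1, 32 higher and 1 lower without day 14 library 2, 4 higher and 7 lower without day 14 library 3. The median without day 14 library 3 was 0.13. Birc5, the mitotic survivin gene, stood at 0.696, 0.521, 0.511 and 0.711 CPM at day 7 and 2.53, 4.61 and 23.9 CPM at day 14. Cdca8, a subunit of the chromosomal passenger complex, stood at 2.51, 2.60, 3.83 and 3.39 CPM and 11.9, 16.1 and 44.4 CPM, and the mitotic kinesin gene Kif2c at 0.362, 0.586, 0.319 and 0.543 CPM and 1.64, 3.61 and 33.8 CPM. In these 3 genes and in the separase gene Espl1, library 3 was the highest and libraries 1 and 2 also lay above day 7, and all 4 were called with and without library 3 (without it 2.55, 2.19, 2.54 and 3.23, largest edgeR adjusted p 0.0152). Mki67, the usual proliferation marker, stood at 4.29, 5.17, 2.87 and 0.293 CPM at day 7 and 2.75, 0.334 and 10.2 CPM at day 14 and was not called (0.49 ± 0.84, edgeR adjusted p = 0.73; -1.05 without library 3). Cdc25b, a phosphatase for mitotic entry that naive T cells also express, fell from 831, 785, 902 and 713 CPM to 279.9, 191 and 82.8 CPM (-2.13 ± 0.36, edgeR adjusted p = 0.00077).

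Of 48 tested DNA replication genes 15 were called higher and 0 lower with all libraries (median 0.60, and 0.06 without library 3). With 1 library left out the counts were 9 higher and 0 lower without day 7 library 1 or 4, 8 higher and 0 lower without day 7 library 3, 4 higher and 6 lower without day 14 library 3. Chaf1a, a histone chaperone of replication forks, stood at 5.85, 6.02, 5.62 and 6.65 CPM at day 7 and 25.2, 30.1 and 83 CPM at day 14 (2.93 ± 0.49, edgeR adjusted p = 0.000744). Mcm10 and the DNA ligase gene Lig1 rose by 4.35 ± 0.87 and 1.82 ± 0.38 on the log2 scale, and without library 3 by 2.46 and 1.38 (edgeR adjusted p = 0.014 and 0.0145). Exo1 and Tk1 were called with all 7 libraries (4.02 ± 0.92 and 3.54 ± 0.83) and not without library 3 (1.45 and 1.94, edgeR adjusted p = 0.0932 and 0.056). With a term for the inferred sequencing run in the fit, 4 G2 and M phase genes were called higher and 2 lower, and 4 and 0 replication genes.

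**Figure D4:**
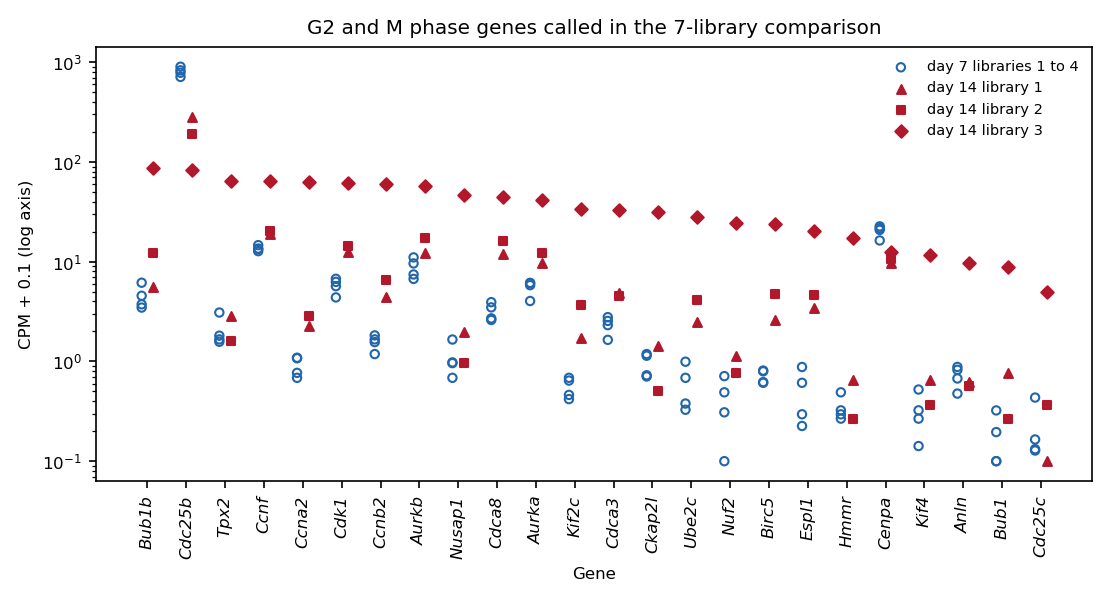
The 24 G2 and M phase genes called with all 7 libraries (x axis) with their level in each library (y axis, CPM + 0.1 on a log axis), open circles for day 7 and filled symbols for day 14. Apart from Cdc25b and Cenpa, the diamonds of day 14 library 3 lie above every other library, while libraries 1 and 2 lie near or moderately above day 7.

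The promoters of 2 G2 and M phase genes that were called are shown because many genes of this phase share a pair of elements: the CCAAT box, bound by NF-Y, and the cell cycle homology region CHR. The letters searched were CCAAT and TTTGAA on both strands in the 200 bases before the start, in RefSeq sequences of GRCm38.p6, and they could overlap. CCAAT was present in 30 of 38 G2 and M phase genes with a sequence (78.9%) and in 37.0% of 9071 tested genes with one, and TTTGAA in 15 (39.5%) and in 9.03%. Of the 18 called higher, 13 had CCAAT (72.2%) and 7 had TTTGAA (38.9%). Ube2c, a ubiquitin-conjugating enzyme of mitosis named here for its promoter, was called (4.53 ± 1.11, edgeR adjusted p = 0.00982), and not without day 14 library 3 (2.71, edgeR adjusted p = 0.0572). It had 5 matches to CCAAT and 1 to TTTGAA, and Cdca8 had 3 and 0. Capitals mark the matches. A match is a stretch of letters and not a measured binding site.
Cdca8, chr4:124936918-124937117, minus strand: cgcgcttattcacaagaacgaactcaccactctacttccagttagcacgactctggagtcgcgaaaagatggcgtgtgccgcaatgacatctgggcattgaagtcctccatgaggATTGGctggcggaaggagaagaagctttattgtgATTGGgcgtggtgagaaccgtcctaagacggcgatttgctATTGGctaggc
Ube2c, chr2:164769729-164769928, plus strand: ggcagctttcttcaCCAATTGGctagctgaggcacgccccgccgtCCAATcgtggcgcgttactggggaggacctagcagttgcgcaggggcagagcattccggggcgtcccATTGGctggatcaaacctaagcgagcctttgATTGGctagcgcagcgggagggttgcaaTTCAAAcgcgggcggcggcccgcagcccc

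Among 29 tested growth arrest and p53 target genes, 9 were called higher (31.0%, beside 13.2% of all genes tested) and 1 lower (3.45%, beside 7.33%). The median was 0.18, 0.05 without day 7 library 3, and 0.39 and 0.33 without day 14 library 2 or 3. The counts were 9 higher and 3 lower without day 14 library 3. Cdkn1a, the CDK inhibitor p21, stood at 4.79, 11.4, 26.7 and 21.4 CPM at day 7 and 362, 337 and 387 CPM at day 14, with the 3 day 14 libraries close together (4.50 ± 0.68, edgeR adjusted p = 0.000406). The p53 targets Phlda3 and Zmat3 rose from 2.06–4.47 to 32.6–38.5 CPM and from 1.89–2.53 to 8.95–11.5 CPM, and the stress gene Gadd45b from 2.98–3.85 to 14.2–21.5 CPM (largest edgeR adjusted p 0.000196). Of 20 tested BCL-2 family genes 6 were called higher and 0 lower, among them the survival genes Bcl2l1 (26.2–31 to 55.9–58.2 CPM) and Bcl2 (12.6–19.3 to 30.6–147 CPM) and the death-promoting gene Bik (1.87–2.33 to 6.32–10.3 CPM). The change of Bcl2 was 2.14 ± 0.46, and 0.997 without day 14 library 3. Leaving out single libraries gave 7 higher and 2 lower without day 14 library 3. In the MYC network and ribosome biogenesis list 2 of 36 were called higher (5.56%) and 1 lower (2.78%), both shares under those of all genes tested. Without day 14 library 3 the counts were 2 higher and 6 lower. The MYC antagonist gene Mxd1 rose from 10.6, 12, 16.2 and 12.7 CPM to 119, 133 and 94.1 CPM (3.16 ± 0.25, edgeR adjusted p = 4.03e-06).

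Genes of the amino acid response were called higher in 15 of 28 tested and lower in 0 (median 0.67). Counts without single libraries were 9 higher and 0 lower without day 7 library 1, 8 higher and 0 lower without day 14 library 2, 15 higher and 2 lower without day 14 library 3. The transcription factor ATF4 drives these genes when amino acids or translation are limiting. Asns, asparagine synthetase, stood at 5.29, 11.9, 16.3 and 16.3 CPM at day 7 and 31.9, 65.9 and 102 CPM at day 14 (2.42 ± 0.43, edgeR adjusted p = 0.00126). Slc1a4, a transporter of small neutral amino acids, stood at 0.668, 1.37, 1.21 and 1.17 CPM and 9.52, 11 and 9.09 CPM (3.16 ± 0.40, edgeR adjusted p = 9.60e-05), and Aars, alanyl-tRNA synthetase, at 248, 256, 285 and 259.6 CPM and 599.5, 695 and 625 CPM (1.29 ± 0.22, edgeR adjusted p = 0.000918). In these 3 genes the days did not overlap. Sesn2, an inhibitor of mTORC1, rose by 1.27 ± 0.27 and Chac1, a glutathione-degrading enzyme, by 3.48 ± 0.73 on the log2 scale, Chac1 from under 1 CPM (edgeR adjusted p = 0.00406 and 0.00381).

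The promoters of Asns, Chac1 and Aars are shown because they are the called members with the letters TGATGNAA, the core of the element that ATF4 binds with a C/EBP partner. The letters were searched on both strands in the same 200 bases and were present in 4 of 21 members with a sequence (19.0%) and in 1.93% of the 9071 tested genes. The match began 23 bases before the start of Asns, 193 before that of Chac1 and 112 before that of Aars, counted to its first base on the printed strand. Capitals mark the match.
Asns, chr6:7693210-7693409, minus strand: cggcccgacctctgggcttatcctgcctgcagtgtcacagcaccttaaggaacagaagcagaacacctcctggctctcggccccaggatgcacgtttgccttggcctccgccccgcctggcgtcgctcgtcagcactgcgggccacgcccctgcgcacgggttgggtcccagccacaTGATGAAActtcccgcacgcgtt
Chac1, chr2:119351042-119351241, plus strand: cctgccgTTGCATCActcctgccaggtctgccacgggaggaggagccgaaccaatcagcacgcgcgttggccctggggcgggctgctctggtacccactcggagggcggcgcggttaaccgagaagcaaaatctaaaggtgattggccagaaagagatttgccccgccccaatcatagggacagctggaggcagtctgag
Aars, chr8:111033642-111033841, plus strand: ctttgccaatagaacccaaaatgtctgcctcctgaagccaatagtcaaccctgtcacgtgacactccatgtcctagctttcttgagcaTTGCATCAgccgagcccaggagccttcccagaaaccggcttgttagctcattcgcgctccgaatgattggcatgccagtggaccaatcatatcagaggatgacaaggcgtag

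Cholesterol synthesis was the metabolic pathway with most calls, 17 of 28 tested genes higher and 0 lower (median 1.15), and 13 and 2 without library 3 (0.64). Mvd, an enzyme of the mevalonate steps, stood at 39.6, 40.6, 55.1 and 52.7 CPM at day 7 and 153, 150.3 and 219 CPM at day 14 (1.89 ± 0.31, edgeR adjusted p = 0.000744). Lss, which closes the sterol rings, stood at 62.7, 61.7, 71.9 and 65.9 CPM and 211, 256 and 283 CPM (1.93 ± 0.29, edgeR adjusted p = 0.000374). Acat2, which makes acetoacetyl-CoA, rose from 7.52–8.80 to 28.6–73.4 CPM, and the late sterol enzymes Tm7sf2 and Hsd17b7 from 6.77–8.37 to 31.2–38 CPM and from 4.09–5.64 to 11.9–59.2 CPM (largest edgeR adjusted p of the 3 0.00184). Levels of the 5 genes did not overlap between days, and the change of Hsd17b7 was 2.47 ± 0.46, or 1.29 without library 3. Of 15 tested fatty acid synthesis genes 5 were called higher and 0 lower: the desaturase genes Fads2, Fads1, Scd1 and Scd2 and the acetyl-CoA carboxylase regulator Mid1ip1. Omission of 1 library gave 5 higher and 1 lower without day 14 library 2 or 3. Fads1 was not called when any 1 library other than day 14 library 3 was left out (edgeR adjusted p up to 0.157). Fads2 went from 1.17, 1.76, 3.96 and 4.22 CPM to 65.5, 60.3 and 116 CPM (4.87 ± 0.73, edgeR adjusted p = 0.000381) and Scd2 from 51.6, 81.8, 95 and 90.4 CPM to 184, 244 and 342 CPM (1.69 ± 0.35, edgeR adjusted p = 0.0037).

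Sterol synthesis genes are switched together by SREBP-2, which binds sterol elements next to CCAAT boxes, and 3 of their promoters are shown for these letters. CCAAT was found in 17 of 20 cholesterol synthesis genes with a sequence (85.0%) against 37.0% of the 9071 tested genes. Among those called higher it was found in 10 of 12 (83.3%). The unfolded protein response list had a like share, 21 of 25 (84.0%). The sterol element letters TCACNCCAC were found in 1 of the 20 cholesterol synthesis genes (5.0%) against 0.97%. That gene was Hmgcs1, the enzyme that makes HMG-CoA, named here for its promoter. It stood at 29.9, 35.7, 26.3 and 28.9 CPM at day 7 and 53.1, 15.3 and 249.9 CPM at day 14 and was called with library 3 (1.81 ± 0.59, edgeR adjusted p = 0.0434) and not without it (0.18, edgeR adjusted p = 0.734), nor without any 1 of the day 7 libraries (up to 0.102). Capitals mark matches to either set of letters in Hmgcs1 and to CCAAT in Mvd and Lss, on either strand.
Hmgcs1, chr13:119690151-119690350, plus strand: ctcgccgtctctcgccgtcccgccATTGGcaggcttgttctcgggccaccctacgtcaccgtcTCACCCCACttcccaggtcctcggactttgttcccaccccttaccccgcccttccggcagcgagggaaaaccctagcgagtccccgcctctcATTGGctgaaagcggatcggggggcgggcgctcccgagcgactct
Mvd, chr8:122443423-122443622, minus strand: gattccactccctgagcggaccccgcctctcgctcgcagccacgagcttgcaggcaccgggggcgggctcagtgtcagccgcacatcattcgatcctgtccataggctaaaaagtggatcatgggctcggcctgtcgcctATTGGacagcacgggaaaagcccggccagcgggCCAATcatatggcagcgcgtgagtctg
Lss, chr10:76531405-76531604, plus strand: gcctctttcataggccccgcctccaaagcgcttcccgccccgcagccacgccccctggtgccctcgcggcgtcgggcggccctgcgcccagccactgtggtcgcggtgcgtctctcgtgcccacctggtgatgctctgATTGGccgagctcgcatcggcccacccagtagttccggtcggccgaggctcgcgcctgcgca

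The lists of energy metabolism differed in their share of calls, beside 13.2% of all genes tested that were called higher and 7.33% lower. Of 26 tested glycolysis genes 6 were called higher (23.1%) and 1 lower (median 0.41). Of 54 oxidative phosphorylation genes 1 was called higher (1.85%) and 0 lower (median 0.12, 0.07 without day 7 library 2; 0 higher and 0 lower without day 7 library 1, 2, 3 or 4 or day 14 library 2, 2 higher and 3 lower without day 14 library 3). Eno2, an enolase, rose from 1.92–3.07 to 10.8–15.9 CPM and the lactate exporter gene Slc16a3 from 5.15–10.2 to 21.6–31.7 CPM. Pdk1, a pyruvate dehydrogenase kinase gene, fell from 215, 244, 169 and 229 CPM to 35.3, 39.5 and 60.2 CPM (-2.25 ± 0.29, edgeR adjusted p = 0.000129). Gapdh, which counts among the 6, and Pgk1 and Pgam1 stood under 2 CPM in every library, and since such genes share reads with near-identical copies their values are uncertain. Gapdh was not called without day 7 library 2 or day 14 library 1, nor Slc16a3 without day 7 library 1 (edgeR adjusted p = 0.0641, 0.0592 and 0.0504). Of 25 hypoxia response genes 8 were called higher (32.0%) and 1 lower, among them Plin2, a lipid droplet coat protein (15.4, 22.5, 33.6 and 32.9 to 184, 204 and 219 CPM), and the secreted glycoprotein gene Stc2 (4.23–5.77 to 40.7–75.6 CPM). Without day 14 library 3 the hypoxia counts were 8 and 2.

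Shares of calls in the folding and lysosome lists were near or under those of all genes tested (13.2% higher, 7.33% lower). In the unfolded protein response list 4 of 30 were called higher (13.3%) and 0 lower (median 0.39), and 5 higher and 3 lower without day 14 library 3. Changes were positive in 27 of the 30, beside 5778 of all 11591 genes tested. Xbp1, the factor that expands the secretory pathway, rose from 88.8, 97.5, 127 and 123 CPM to 364, 428 and 645 CPM (2.13 ± 0.27, edgeR adjusted p = 0.000115), and the endoplasmic reticulum protein gene Sdf2l1 from 34.2–42.1 to 102–145 CPM. No heat shock gene of 15 was called in either direction (1 higher and 0 lower without day 14 library 2, 0 higher and 4 lower without day 14 library 3). Of 34 lysosome and autophagy genes 4 were called higher (11.8%) and 2 lower (5.88%). The progranulin gene Grn rose from 208, 227, 338 and 287 CPM to 1097, 1061 and 1148 CPM, and the protease gene Ctsd fell from 2135, 2316, 2800.2 and 2569.5 CPM to 1268, 1164 and 839 CPM (2.06 ± 0.27 and -1.17 ± 0.19, edgeR adjusted p = 0.000138 and 0.000517). Of 21 antioxidant and iron genes 5 were called higher (23.8%), among them sulfiredoxin Srxn1 (0.390–0.670 to 4.36–6.85 CPM) and metallothionein Mt1 (0.306–0.862 to 5.87–8.95 CPM), and 3 lower (14.3%), among them Gclm of glutathione synthesis (72.8–84.4 to 42.5–43 CPM). With 1 library left out the lysosome counts were 2 higher and 2 lower without day 7 library 4 or day 14 library 2, 7 higher and 5 lower without day 14 library 3. The antioxidant counts were 4 higher and 1 lower without day 14 library 1, 8 higher and 3 lower without day 14 library 3.

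Interferon-stimulated genes spread widely within both days. Of 39 tested 3 were called higher (7.69%, under the 13.2% of all genes tested) and 0 lower. The counts were 0 higher and 0 lower without day 7 library 1, and 1 higher and 4 lower without day 14 library 3. Stat2, the factor that relays type I interferon, rose from 81.2–122 to 209.5–241 CPM and Isg20 from 9.61, 16.3, 43.6 and 28.5 CPM to 109, 91.6 and 165 CPM (edgeR adjusted p = 0.0169 and 0.0301). Stat2 was not called without day 7 library 1, and Isg20 kept its call only without day 7 library 3 or day 14 library 2 (edgeR adjusted p up to 0.0531 and 0.0854). Of 19 interferon-inducible GTPase genes 3 were called higher (15.8%, near the share of all genes tested) and 0 lower (3 higher and 3 lower without day 14 library 3). Gbp11 stood at 4.61, 4.98 and 69 CPM at day 14, most of it in library 3 (4.81 ± 0.85, and 2.36 without it). Of 64 cytosolic ribosomal protein genes, whose reads are shared with many copies, 0 were called (2 higher and 3 lower without day 14 library 3).

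In the TGF-beta list 4 of 18 tested genes were called higher (22.2%, beside 13.2% of all genes tested) and 2 lower (11.1%, beside 7.33%). Without day 14 library 3 the counts were 2 higher and 4 lower. Pmepa1, a feedback inhibitor of SMAD signalling, rose from 6.85, 5.63, 8.17 and 7.31 CPM to 88.9, 109 and 77 CPM (3.71 ± 0.30, edgeR adjusted p = 4.03e-06), Ltbp3, which binds latent TGF-beta, from 0.334–0.990 to 4.95–11.1 CPM, and Smad4 fell from 259–325 to 158–169 CPM (edgeR adjusted p = 0.00051 and 0.00978). Of 24 Argonaute and microRNA pathway genes 1 was called higher (4.17%) and 2 lower (8.33%), beside 13.2% and 7.33% of all genes tested. The higher one was Tarbp2, a partner of Dicer (19–21.7 to 41.7–70.2 CPM). The lower ones were Dicer1 (25.8–42 to 9.65–28.1 CPM) and the deadenylation factor Pan3 (10.2–20.5 to 3.67–7.70 CPM). Those 2 calls were weak: Dicer1 (-0.99 ± 0.33) kept its call only without day 7 library 4 or day 14 library 3 (-1.53 without the latter), and Pan3 lost it without day 7 library 1 or 2 or day 14 library 1 or 2 (edgeR adjusted p up to 0.162 and 0.099). The Argonaute genes were not called: Ago2 stood at 126 ± 5.18 CPM (SD, n = 4) and 117 ± 8.40 CPM (SD, n = 3), and Ago1, Ago3 and Ago4 stayed under 6 CPM (edgeR adjusted p from 0.114 to 0.668), except that Ago4 was called higher without day 14 library 1 (1.70, edgeR adjusted p = 0.0196). Of 40 splicing genes 0 were called higher and 2 lower (5.0%, beside 7.33% of all genes tested). The counts were 0 higher and 1 lower without day 14 library 1, and 0 higher and 11 lower without day 14 library 3.

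Some of the genes with the largest fold changes belonged to no list. Besides Gzma, Gzmb, Il24 and Tnfrsf8, the 15 highest were Sval1, Thbs4, Mcf2l, Foxf2, Ctsh, Pilrb1, Ccn3, F2rl2, Acat3, Nts and Dmwd. Mcf2l, a guanine nucleotide exchange factor, had 4, 0, 0 and 0 reads at day 7 and stood at 34.4, 72.6 and 78.8 CPM at day 14. Foxf2, a forkhead factor of mesenchymal tissue, had 1, 0, 0 and 1 reads at day 7 and stood at 14.5, 22.1 and 23.6 CPM at day 14, 1242-fold by reads (95% counting interval 343 to 10265). Thbs4, an extracellular thrombospondin, had 0 reads at day 7 and 2.90, 10.5 and 17.5 CPM at day 14, at least 436-fold higher (edgeR adjusted p = 1.36e-05, 1.74e-06 and 0.00054). Nts, the neuropeptide neurotensin, stood at 1.00, 2.51, 2.84 and 2.72 CPM at day 7 and 43.8, 53.8 and 794 CPM at day 14, so that library 3 held most of its mean (7.04 ± 0.99, and 4.43 without library 3). Sval1 and Ccn3 also owed most of their day 14 level to library 3, at 0.595, 1.57 and 38.6 CPM and 1.23, 0.234 and 31.7 CPM, and the change of Ccn3 was 8.23 ± 1.58 with that library and 4.29 without it. Ctsh, a cathepsin, Pilrb1, a paired receptor, F2rl2, a thrombin receptor, Acat3, a thiolase, and Dmwd stood under 1 CPM in every day 7 library and between 4.83 and 164 CPM in every day 14 library.

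The 15 genes with the deepest falls were, besides Dapl1, Actn1, Txk, Gpr183, Ly6c1, Ms4a4b and Ccr2, the genes Cd9, Ifitm10, Car2, Cpm, Adh1, Nod1, St8sia6 and H2-Ob. Cd9, a tetraspanin, fell from 211, 245, 264 and 322 CPM to 16, 8.42 and 3.00 CPM (-4.83 ± 0.61, edgeR adjusted p = 0.00011). Nod1, an intracellular sensor of bacterial cell walls, fell from 21.4–59.95 to 0.711–3.83 CPM and St8sia6, a sialyltransferase, from 43.8–111 to 2.84–10.7 CPM. The enzymes Car2, Cpm and Adh1, the transmembrane protein gene Ifitm10 and H2-Ob, an inhibitor of class II peptide loading, fell as well (largest edgeR adjusted p of the 5 0.000586).

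Of the lists for other blood cells, that for B cells had the highest summed level at both days, followed by the class II genes at 66.1 to 111 CPM at day 7 and 101 to 138 CPM at day 14. Ighm, the immunoglobulin heavy chain gene, stood at 2434, 2310.5, 2611 and 2891 CPM at day 7 and 815, 908 and 642 CPM at day 14 (-1.70 ± 0.20, edgeR adjusted p = 4.46e-05) and held nearly all of the B cell list, whose sum was 2312 to 2893 CPM and 642 to 909 CPM. The B cell surface gene Ms4a1 had 2 reads in the 7 libraries and Blk had 0. Cpa3, a mast cell protease gene, fell from 46.4, 51.5, 61.9 and 28.4 CPM to 5.58, 1.00 and 4.70 CPM and Kit, the stem cell factor receptor, from 6.35, 3.12, 2.52 and 1.88 CPM to 0.0744, 0 and 0.124 CPM (-3.65 ± 0.74 and -5.61 ± 1.07, edgeR adjusted p = 0.00315 and 0.00208). The mast cell list added up to 36.6 to 72.1 CPM at day 7 and 4.54 to 10.4 CPM at day 14, and Ms4a2, Mcpt4, Mcpt8 and Prss34 had 0 reads in all libraries. The myeloid list added up to 2.14 to 4.43 CPM and 8.74 to 30.7 CPM, mostly Adgre1 at 6.21–24 CPM at day 14, with Itgam and Itgax at 0 reads. Sums of gamma-delta and NKT cell markers were 1.81 to 4.59 CPM and 2.04 to 9.37 CPM, and those of erythroid and platelet markers 1.09 to 1.45 CPM and 0.340 to 1.20 CPM. What part these cells had in other results was not tested.

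Whether the second week ran alike in the knockout cultures was looked at over all genes tested. All 10 genes whose difference between genotypes was called are named. For Gramd3, P2ry1, Batf3, Bspry, Atp1b1 and Zbtb8a that call is the only reason for being named. Between days 7 and 14 of the knockout, 1792 of the 11591 genes were called (15.5%), 1222 higher (10.5%) and 570 lower (4.92%). Cell division genes were called higher in knockout as well. Of 46 tested G2 and M phase genes 38 were called higher there and 2 lower (median 3.50). Of 48 tested DNA replication genes 30 were called higher and 0 lower (median 1.56). In both genotypes and in the same direction 1202 genes were called, which is 50.6% of the wild-type calls and 67.1% of the knockout calls, and 5 genes were called in opposite directions. A difference of the 2 changes was called for 10 genes (0.0863%), 9 of which were wild-type calls, and 924 genes had an unadjusted p under 0.05 in that test. Txk changed by -4.51 ± 0.29 in wild type and by -1.22 ± 0.25 in knockout on the log2 scale (edgeR adjusted p of the difference = 0.00169). Ms4a6b, the purine receptor gene P2ry1 and Gramd3 likewise fell further in wild type, at -3.76 ± 0.32, -3.52 ± 0.28 and -3.80 ± 0.24 against -1.34 ± 0.29, -1.37 ± 0.25 and -1.58 ± 0.22 (largest edgeR adjusted p of a difference 0.037).

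Among genes that rose, Tigit changed by 3.94 ± 0.58 in wild type and -1.15 ± 0.56 in knockout, the transcription factor gene Batf3 by 3.34 ± 0.46 and -0.51 ± 0.44, and Bspry by 2.77 ± 0.29 and 0.26 ± 0.28 (edgeR adjusted p of the differences 0.037, 0.0372 and 0.037). Kit changed by -5.61 ± 1.07 in wild type and 2.62 ± 0.76 in knockout, and the sodium pump gene Atp1b1 by -1.96 ± 0.40 and 1.17 ± 0.37 (edgeR adjusted p of the differences 0.037 and 0.0479). Zbtb8a changed by 0.14 ± 0.43 in wild type and 4.26 ± 0.51 in knockout (edgeR adjusted p of the difference 0.037). For the other genes named, among them Gzma, Gzmb, Il10 and Ecm1, the difference between genotypes did not pass the test, which does not show that the changes were equal.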

How the data were processed

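RNA sequencing libraries of cultured mouse T cells were compared, 4 of day 7 and 3 of day 14, wild type in both. The deposited files give, for 22598 genes, raw counts of reads over the coding part of each gene and the authors' RPKM values, per the file headers. The submitters' processing notes name GSNAP 2013-11-01 and GRCm38, and counting tool, annotation and use of strand are unstated in the labels and notes used, so reads of overlapping or near-identical genes may be shared. Day 7 libraries held 24584420 to 35803197 counts and day 14 libraries 27963051 to 31042380. The RPKM values were used only to state levels per length.

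Counts were scaled by TMM and tested with edgeR 4.0.16 (R 4.3.3) by the quasi-likelihood test, with 4 groups of genotype and day over all 14 libraries sharing 1 estimate of the spread. The filter of edgeR for low counts left 11591 genes, and p-values were adjusted over all of them by the Benjamini-Hochberg method (threshold 0.05). In simulated counts with 200 changed genes among 11456, the fit recovered 16% of 2-fold and 71% of 4-fold changes of the day contrast, and 10 unchanged genes were called. The data gave 2375 calls, and the simulation gave all libraries the same spread, without a deviating day 14 library 3. These shares therefore need not hold for the data. An exact permutation of 4 against 3 libraries could not fall under a p of 0.0571, so single genes are tested only in the model. Bounds use a floor of 3 counts over the group. Intervals cover counting error only, and reads without molecular identifiers are not independent molecules.

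The text names genes of the cytokine, lineage and Argonaute set, the 15 highest and 15 lowest log2 fold changes of genes with a mean of at least 5 CPM and no overlap, up to 5 called members per list, defining markers of cell types and the 10 most abundant genes of either day. It also names every gene whose difference between genotypes was called. Genes outside this are said to be so, and some genes that the rule names are not reported here. The members, the 46 lists and the rule were chosen with earlier results of these data known. The 8 marker lists cover CD4 T cells, B cells, myeloid and dendritic cells, class II genes, mast cells and basophils, CD8 T and NK cells, gamma-delta and NKT cells, and erythroid cells and platelets. Alternatives were other scaling and filters, DESeq2 1.42.0, limma 3.58.1 with voom, wild-type libraries alone, a replicate block, a term for the inferred sequencing run, a 2-fold threshold, removal of GC and length trends, and each library left out. Promoter sequences are from RefSeq (GRCm38.p6).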

Additional observations from a re-analysis of the deposited data

Results flagged for a closer look

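The change between days differed between wild type and knockout by the test of the difference itself in 10 of 11591 genes tested. All 10 are named because every such call is named, so their number gives no share among the named genes. The knockout change minus the wild-type change, on the log2 scale, was 3.29 for Txk, 2.42 for Ms4a6b, 2.21 for Gramd3 and 2.15 for P2ry1, which fell less in knockout. It was 8.23 for Kit, 3.13 for Atp1b1 and 4.13 for Zbtb8a. It was -5.09 for Tigit, -3.84 for Batf3 and -2.51 for Bspry. The edgeR adjusted p of these differences ran from 0.00169 for Txk to 0.0479 for Atp1b1.

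In 10 of 194 named genes 1 of the 4 day 7 libraries lay apart from the other 3 by Dixon's ratio, and chance gives about 1 in 20 groups. Library 1 was the highest for Cblb (140 CPM), Ccr7 (1730 CPM) and Mcf2l (0.111 CPM) and the lowest for Ikzf4 (6.24 CPM). Library 2 was the highest for Nrp1 (79.2 CPM), F2rl2 (0.521 CPM) and Ccn3 (0.13 CPM). Library 3 was the highest for Eno2 (3.07 CPM), Ltbp3 (0.99 CPM) and Il6 (0.0319 CPM). Groups of 3, the day 14 libraries, were not tested.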

How the results depend on the processing

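The fit called 2375 genes, 1525 higher and 850 lower (64.2% higher). The count of calls moved by over 1.5 times with limma-voom (4581, of which 2344 lower), with a 2-fold threshold (832, 630 higher and 202 lower) and with GC and length trends removed (3595, 49.2% higher, 1825 lower); the cause was not tested. Voom calls were 48.8% higher and those of the 2-fold threshold, which asks for more, 75.7%. With 1 library left out the calls ran from 1723 to 3539, the higher ones from 1112 to 1695 and the lower ones from 562 to 1844; the highest count is without day 14 library 3, of which 47.9% were higher. The other scalings, filters, DESeq2 (2986 calls), the run term and the wild-type libraries alone kept the count of calls within 1.5 times, and upper-quartile factors shifted the median of all genes by 0.106 on the log2 scale. No called gene was called in the opposite direction under an alternative, and 1389 calls (948 higher, 441 lower) held without each library in turn.

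The labels do not say whether replicate numbers pair the samples. Deviations of same-numbered libraries from their group means correlated at 0.35, -0.68 and -0.45, which cannot settle it with so few libraries. With the replicate block 1129 genes were called, 777 higher and 352 lower.

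Of 194 named genes 130 kept direction and side of the threshold in all 19 alternatives. The signs that changed belong to genes that were not called. The log2 fold changes whose sign differed were these, with trends removed Ago3 0.006, Laptm5 -0.19, Selplg -0.22 and Trbc2 -0.24, with RLE factors Cd3e 0.007, with upper-quartile factors Cd3e 0.10, Rasal3 0.091 and Trbc1 0.024, with the CPM filter Cd3e 0, with DESeq2 Cd3e 0.007. They were also, with voom Cd3e 0.16, Cd3g -0.071, Mki67 -0.85, Pgk1 -0.75, Rasal3 0.091 and Zbtb8a -0.019, with the run term Cd3e 0.012, Mki67 -1.07 and Rasal3 0.022, with the replicate block Cd8b1 0.014, Laptm5 -0.008 and Mki67 -0.74, with no count filter Trbc2 -0.002. With 1 library left out the changes ran from -0.17 to 0.22 for Cd3e, -0.081 to 0.63 for Cd3g, -0.20 to 0.018 for Cd8b1, -0.12 to 0.32 for Laptm5, -1.05 to 1.03 for Mki67. They ran from -0.021 to 0.91 for Pgk1, -0.23 to 0.20 for Rasal3, -0.038 to 0.30 for Selplg, -0.077 to 0.11 for Trbc2, -0.087 to 0.26 for Zbtb8a.

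Of 722 medians of the lists under the alternatives 109 moved by more than the SD between libraries. Of the printed medians of at least 0.3, those that moved by over 1.5 times were, with trends removed, Th2 transcription factors 0.45 and immediate early genes 0.36 (the SOCS list went from 0.81 to 0.49), with voom G2 and M phase 0.21, replication 0.12, chemokine receptors 0.75 and inhibitory receptors 0.45, with the run term 1.23 and 0.33 for G2 and M phase and replication, 0.42 for inhibitory receptors and 0.45 for the TNF receptor family, with the replicate block 1.01 and 0.29 for G2 and M phase and replication, and 0.26 for inhibitory receptors with the CPM filter or wild-type libraries alone. Those with 1 library left out stand beside the lists.

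Depth limits the genes under about 1 CPM, where the reads of a day are few.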
